A study of Mus musculus with 15 samples.

Results

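The comparison set 3 arrays of mouse embryonic stem (ES) cells kept in both inhibitors of the 2i medium with leukaemia inhibitory factor (LIF), called 2iLIF, against 3 arrays of the same cells in both inhibitors after LIF had been taken away, called 2i. These are 6 of the 15 arrays of the study, chosen by their titles, and every one of 19937 genes was tested. Both groups received 3 μM CHIR99021, an inhibitor of the kinase GSK3 that stabilises beta-catenin, and 1 μM PD0325901, an inhibitor of the kinase MEK that blocks signalling through ERK. The 2iLIF cells were in long-term culture, and the 2i cells had been without LIF for 24 h. The other 9 arrays, also 24 h without LIF, came from cells left with CHIR99021 alone (CHIR), PD0325901 alone (PD03) or the solvent DMSO, with 3 arrays each, so 12 arrays had no LIF.

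All groups came from 1 knock-in ES cell line adapted to 2i, in which beta-catenin (Ctnnb1) carries a biotin tag and a 3xFLAG tag and the biotin ligase BirA is present. Any trait of that line was therefore shared by every group. The labels do not say how the replicates of a group were raised, and the p-values below speak only of the spread between these arrays, which may be technical. Continuous culture against a medium change a day earlier and the presence against the absence of LIF cannot be told apart. In bulk RNA, fewer cells of a type and less RNA per cell cannot be told apart either.

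LIF binds a receptor made of Lifr and Il6st (gp130), which activates the kinase Jak1. Jak1 phosphorylates the transcription factor Stat3, which then enters the nucleus, binds DNA at sites of the form TTCNNNGAA and switches on targets that include its own feedback inhibitor Socs3. In mouse ES cells this pathway supports the naive state through transcription factors such as Klf4, Gbx2 and Tfcp2l1, and the 2i inhibitors support the same state by other routes.

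Each array was hybridised with label made from 300 ng of total RNA. Values are log2 expression on the scale of the deposited table, so a difference of 1 is a 2-fold change, and array medians lay between 6.98 and 7.06. The number of arrays limits the precision: the median standard error (SE) of a log2 difference was 0.0509. Correlation between arrays of 1 group was 0.998 to 0.999 and that between 2iLIF and 2i arrays 0.997. The 6 ES cell markers, including Pou5f1, Sox2 and Nanog, were measured at 10.17 to 12.72 in 2iLIF and none passed the test between the groups. The transcript of Ctnnb1, the tagged gene, differed by -0.00 ± 0.03 (SE; adjusted p = 0.979).

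Many genes differed between 2iLIF and 2i by small amounts and few by large ones. With limma across all 15 arrays and Benjamini-Hochberg adjustment over all genes, 2437 genes passed an adjusted p of 0.05, which is 12.2% of those tested. Of these, 910 (4.56%) were higher and 1527 (7.66%) lower in 2iLIF. The median absolute change of the genes that passed was 0.248 on the log2 scale. Among the higher genes 26 rose 2-fold or more, 84 rose between 1.5- and 2-fold and 800 by less than 1.5-fold; among the lower genes the numbers were 16, 81 and 1430. The 42 genes past the 2-fold minimum were 0.211% of those tested.

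The balance of higher and lower calls depended on a very small shift of the whole distribution. The median difference over all genes was -0.0135, and centring each array on its own median moved it to 0.0208. After centring, 2145 genes passed, 1162 higher and 983 lower, so that the higher share moved from 37.3% to 54.2%. Among genes past the 2-fold minimum, 30 were then higher and 14 lower. Counts of higher and lower genes below are on the deposited scale unless centring is named.

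**Figure D1:**
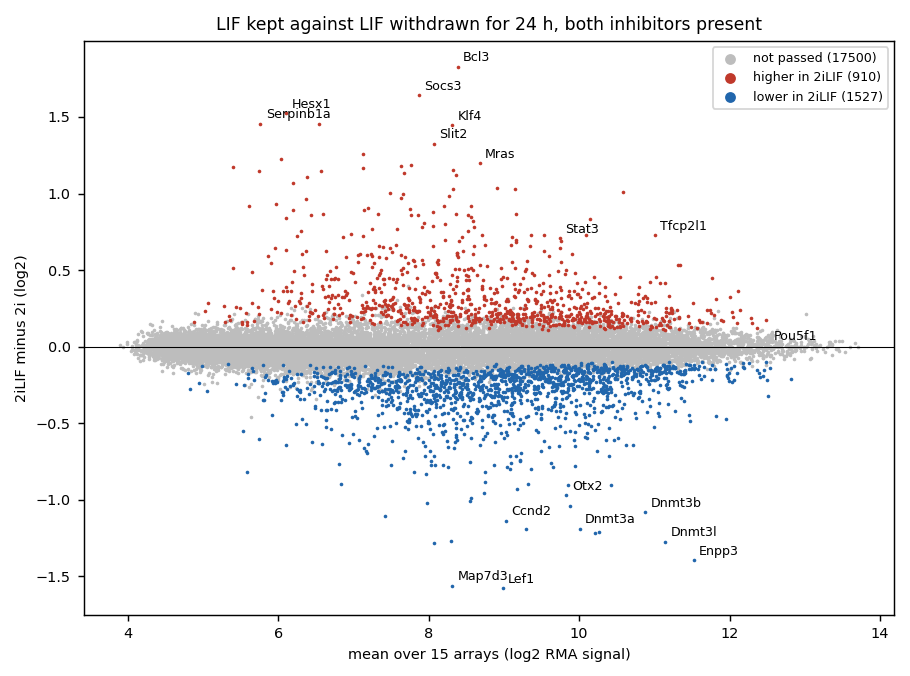
Log2 difference between 2iLIF and 2i (vertical axis) against the mean log2 signal over 15 arrays (horizontal axis), 1 point per gene for 19937 genes. Coloured points passed an adjusted p of 0.05, 910 higher and 1527 lower in 2iLIF, and most lie within 1.5-fold, with Bcl3 and Socs3 at the upper and Lef1 at the lower edge.

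The transcripts of the receptor and kinases of the pathway were close to level, while Stat3 itself was higher with LIF. Lifr differed by 0.09 ± 0.04 (SE; adjusted p = 0.188), Il6st by 0.06 ± 0.05 (adjusted p = 0.564) and Jak1 by 0.01 ± 0.04 (adjusted p = 0.943), and none of these passed. Stat3 read 10.47, 10.40 and 10.30 in 2iLIF and 9.64, 9.63 and 9.78 in 2i, with no overlap. It rose by 0.71 ± 0.05 (SE; adjusted p = 1.26e-07), and its 2iLIF arrays lay above all 12 arrays without LIF, whose group means ran from 9.46 in DMSO to 9.68 in 2i.

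Of 22 measured genes of LIF receptors and JAK/STAT signalling, 2 were higher and 2 lower, so 18.2% passed against 12.2% of all genes. The median was 0.00398 against -0.0135 over all genes. Besides Stat3, the interleukin 6 receptor subunit Il6ra was higher by 0.23 ± 0.06 (adjusted p = 0.0134), a call lost without 2iLIF replicate 2 or 2i replicate 3, where 1 gene of the list was higher. The lower genes were Cntfr, the receptor subunit for the related ciliary neurotrophic factor, at -0.55 ± 0.07 (adjusted p = 9.21e-05), and Stat4 at -0.38 ± 0.05 (adjusted p = 8.26e-05).

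Among 14 feedback inhibitors of STAT signalling, Socs3 was higher and the other 13 did not pass (7.14% passed, against 12.2% of all genes). Socs3, which blocks the LIF receptor complex, read 8.92, 9.08 and 9.0 in 2iLIF and 7.55, 7.23 and 7.29 in 2i. The groups did not overlap, and the 2iLIF arrays lay above all 12 arrays without LIF, whose group means ran from 7.36 in 2i to 7.77 in DMSO. Socs3 rose 3.12-fold, by 1.64 ± 0.08 on the log2 scale (adjusted p = 1.4e-09). A second probe set named Socs3, with a mean of 6.68, differed by only 0.01 ± 0.08 (adjusted p = 0.967), so the change rests on the brighter set. The 13 members that did not pass, among them further SOCS and PIAS genes, lay between -0.09 and 0.07.

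The short stretches below come from promoters of genes that rose. They were picked because they hold a match to the STAT-type palindrome TTCNNNGAA, shown in capitals. Binding at such sites is how Stat3 is known to reach its targets. They are RefSeq promoter sequence of build GRCm38.p6, written 5′ to 3′ on the strand of the gene. Socs3 is the feedback inhibitor, Icam1 a cell adhesion molecule of the STAT3 target list, and Gcnt4 a glycosyltransferase among the 26 genes that rose 2-fold.
Socs3, chr11:117969487-117969546, minus strand, from -180 to -121 relative to the gene start: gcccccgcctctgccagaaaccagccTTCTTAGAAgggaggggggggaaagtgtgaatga
Icam1, chr9:21015870-21015929, plus strand, from -70 to -11: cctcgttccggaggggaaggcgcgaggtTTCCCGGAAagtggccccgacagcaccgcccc
Gcnt4, chr13:96924144-96924203, plus strand, from -200 to -141: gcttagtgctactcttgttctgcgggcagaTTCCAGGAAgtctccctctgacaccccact

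Promoter windows of 300 bases, from 250 before to 50 after the gene start, were found for 15562 of the tested genes. TTCNNNGAA, a palindrome that reads the same on both strands, lay in the window of 1402 of them (9.01%). It lay in 80 of 720 genes higher in 2iLIF (11.1%), in 85 of 1226 lower genes (6.93%) and in 7 of 25 genes of the STAT3 target list. Of these 7, Cish (0.02) and Fgl2 (0.07) did not pass, and Icam1, Sbno2, Sgk1, Socs3 and Zfp36 were higher. Among genes that rose 2-fold, 4 of 19 with a window held a match. The narrower TTCCNGGAA, every match of which is also a TTCNNNGAA, lay in 223 genes (1.43%), in 23 higher genes (3.19%) and in 9 lower genes (0.734%). These shares were not tested, and a match is a run of letters, not evidence of binding.

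Known LIF and STAT3 targets were higher with LIF or did not pass, and none was lower. Of 31 measured members 16 were higher (4.56% of all genes were), and the median difference was 0.222. The count was 13 to 15 when 1 array was left out. Bcl3, an IkappaB-family co-regulator, read 10.03, 9.98 and 9.81 in 2iLIF and 8.11, 8.11 and 8.13 in 2i, with no overlap. It rose 3.55-fold, by 1.83 ± 0.08 (adjusted p = 1.15e-09), the largest rise among the named genes. The other groups without LIF had means of 7.83 to 8.07.

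Mras, a Ras-family GTPase, read 10.04, 10.07 and 9.97 in 2iLIF and 8.73, 8.80 and 8.96 in 2i, and rose by 1.2 ± 0.05 (adjusted p = 7.75e-10). Its second probe set gave 1.13 ± 0.08. Icam1 read 8.94, 8.95 and 8.73 against 8.15, 8.0 and 8.07, and rose by 0.80 ± 0.06 (adjusted p = 1.11e-07). All 2iLIF arrays of Mras and Icam1 lay above all 12 arrays without LIF. Ceacam1, an adhesion molecule, rose by 0.57, Zfp36, which destabilises messenger RNA, by 0.44 and Smad7, an inhibitor of TGF-beta signalling, by 0.40.

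Several members of the same list, known as rapid cytokine targets, did not pass. Junb differed by 0.10 ± 0.07 (adjusted p = 0.487), the kinase gene Pim1 by 0.10 ± 0.05 (adjusted p = 0.189) and Myc by 0.25 ± 0.13 (adjusted p = 0.266). The error of Myc was wide beside the median SE of 0.0509. The 15 members that did not pass lay between -0.05 and 0.25.

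Acute phase genes passed at a share near that of all genes, 15.8% against 12.2%. Of 19 acute phase and innate response genes 3 were higher and none lower, with a median of 0.0117: Saa3, an acute phase serum amyloid, at 0.44 ± 0.05 (adjusted p = 9.47e-06), the protease inhibitor Timp1 at 0.29 ± 0.05 (adjusted p = 0.00101) and the fibrinogen chain Fgg at 0.29 ± 0.04 (adjusted p = 0.000115). Without 2i replicate 3, 1 gene of this list was lower.

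**Figure D2:**
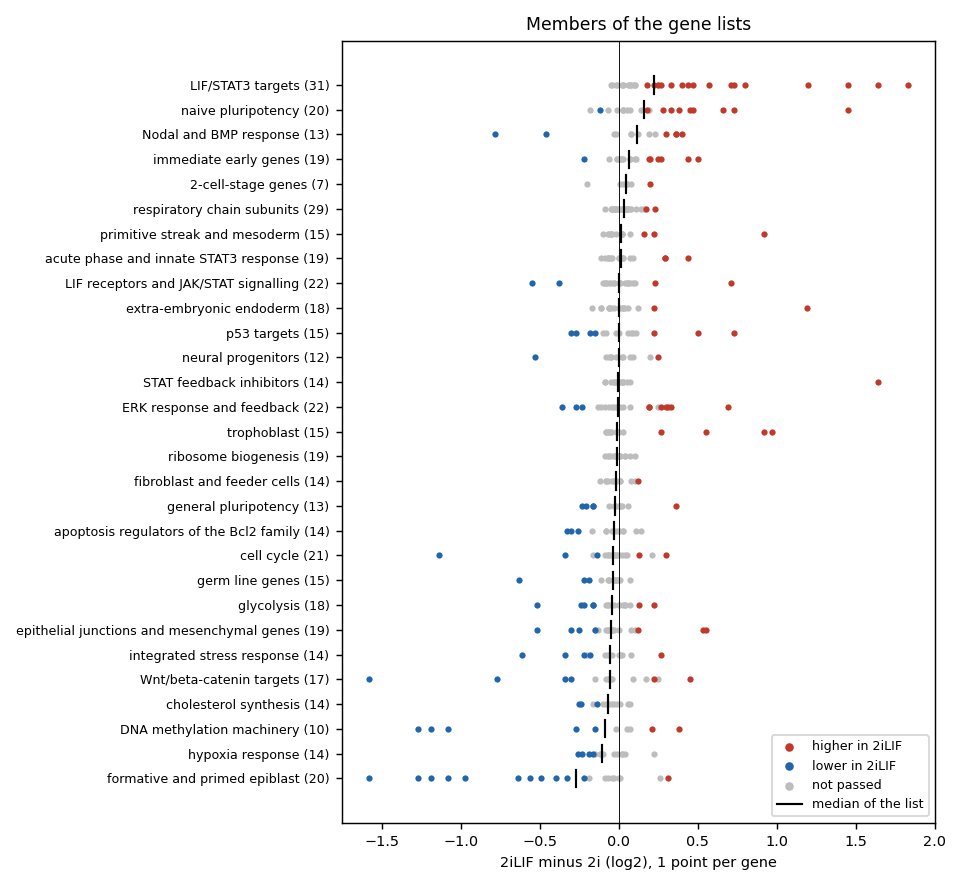
Log2 difference between 2iLIF and 2i for the measured members of 29 gene lists, ordered by list median, 1 point per gene and a black bar for the median. The LIF/STAT3 target list (median 0.222) and the naive list (0.157) lie to the right of 0 and the formative and primed list (-0.271) to the left. Lists share members, so a gene can appear in more than 1 row.

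Part of the naive pluripotency factors were higher with LIF, with both inhibitors present in each group. Of 20 measured members 9 were higher and 1 lower, with a median of 0.157, while 4.56% of all genes were higher and 7.66% lower. The lower gene of the list, Fgf4 at -0.12 ± 0.04 (adjusted p = 0.0485), lost its call whichever of the 6 arrays was left out. Klf4, a Krüppel-like activator, read 10.07, 9.85 and 9.82 in 2iLIF and 8.42, 8.47 and 8.51 in 2i. It rose 2.72-fold, by 1.45 ± 0.09 (adjusted p = 3.04e-08), and its other group means stepped down to 8.32 in CHIR, 7.74 in PD03 and 7.14 in DMSO.

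Tfcp2l1, a grainyhead-family factor whose forced expression can stand in for LIF in ES cells, read 12.12, 12.13 and 11.98 in 2iLIF and 11.36, 11.32 and 11.37 in 2i. It rose by 0.73 ± 0.05 (adjusted p = 1.47e-07). Tbx3, a T-box factor, read 10.41, 10.32 and 10.28 against 9.64, 9.72 and 9.67 and rose by 0.66 ± 0.07 (adjusted p = 1.37e-05). For both, 2i was the highest of the 4 groups without LIF and DMSO the lowest.

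Smaller rises were seen for Gbx2 (0.47 ± 0.07, adjusted p = 0.000137), Tcl1 (0.45 ± 0.07, adjusted p = 0.000301), Prdm14 (0.38 ± 0.05, adjusted p = 7.25e-05) and Klf5 (0.33 ± 0.05, adjusted p = 0.000214). Gbx2, a homeobox factor, was the exception in its levels elsewhere, with means of 8.59 in 2iLIF, 8.13 in 2i and 8.83 in DMSO, so its 2iLIF arrays were not above the arrays without LIF. Klf2, a Krüppel-like relative of Klf4, differed by 0.07 (adjusted p = 0.311). Nanog read 12.72, 12.76 and 12.68 against 12.66, 12.69 and 12.72, with overlapping groups (0.03 ± 0.04, adjusted p = 0.802). Pou5f1, at 0.01 (adjusted p = 0.925), and Sox2, at 0.02 (adjusted p = 0.857), did not pass either.

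Of 13 general pluripotency genes 1 was higher and 4 lower (38.5% passed, against 12.2% of all genes), with a median of -0.0213. The higher gene was Tdgf1, a Nodal co-receptor, at 0.36 ± 0.07 (adjusted p = 0.00173). The lower ones lay between -0.23 and -0.16, and their number fell to between 1 and 3 when 1 array was left out, with 1 without 2i replicate 3 and 2 without any of the 3 2iLIF arrays or 2i replicate 1. It was also 1 after centring.

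**Figure D3:**
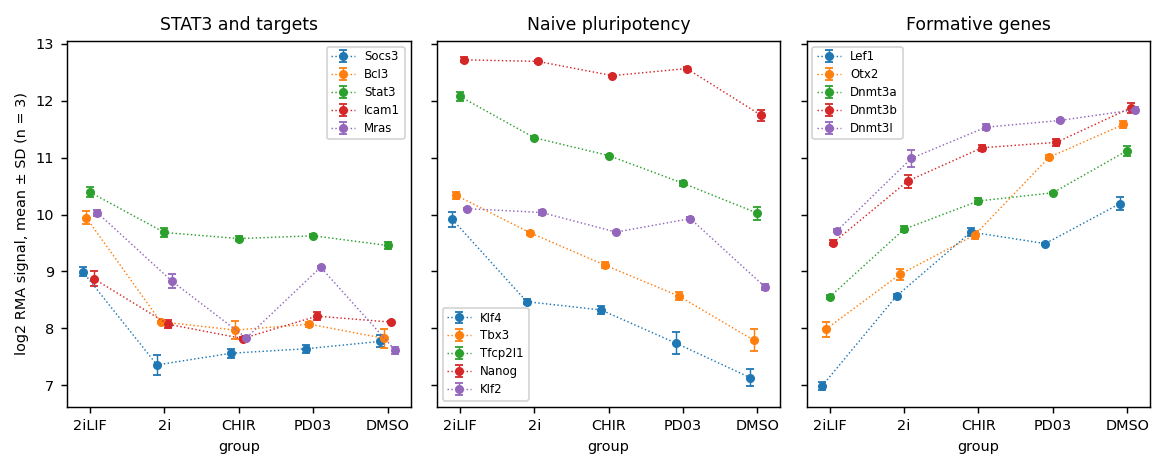
Mean ± SD (n = 3 arrays) of the log2 level of 15 genes in the 5 groups: STAT3 targets, pluripotency factors, and genes lower with LIF. Socs3, Bcl3 and Stat3 have their highest mean in 2iLIF and lie close together in the 4 groups without LIF, Klf4, Tbx3 and Tfcp2l1 step down from 2iLIF to DMSO, and Lef1, Otx2 and the Dnmt3 genes are lowest in 2iLIF and highest in DMSO.

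Many, but not all, listed genes of the formative and primed epiblast, the state that naive cells enter as they leave self-renewal, were lower with LIF. Of 20 measured members 11 were lower and 1 higher, with a median of -0.271, while 7.66% of all genes were lower. The other 8 did not pass and lay between -0.19 (Fgf5) and 0.26 (Foxd3). The count of lower members was 10 or 11 when 1 array was left out. Lef1, a TCF/LEF partner of beta-catenin, read 7.03, 7.03 and 6.91 in 2iLIF and 8.54, 8.61 and 8.56 in 2i. It fell by 1.58 ± 0.05 on the log2 scale, a 2.99-fold difference (adjusted p = 1.15e-10), and stood at 9.69 in CHIR, 9.49 in PD03 and 10.19 in DMSO.

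Otx2, a homeobox factor of the formative state, read 7.85, 8.12 and 7.98 in 2iLIF and 8.84, 9.04 and 8.97 in 2i, and fell by 0.97 ± 0.06 (adjusted p = 6.06e-08). Its means in the other groups were far higher, from 9.64 in CHIR to 11.58 in DMSO. The zinc-finger factors Zic5 (-0.64 ± 0.04, adjusted p = 3.04e-08) and Zic2 (-0.49 ± 0.04, adjusted p = 1.78e-07) were lower too. Fgf5, the most used marker of the primed state, differed by -0.19 ± 0.14 (adjusted p = 0.485). The member that was higher, Etv4 at 0.31 ± 0.08 (adjusted p = 0.016), is a target of ERK signalling, and its call was lost without 2iLIF replicate 1 or 3 or 2i replicate 1 or 2.

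The de novo DNA methyltransferases, which write new methylation on DNA, fell together. Dnmt3a read 8.52, 8.60 and 8.54 in 2iLIF and 9.74, 9.69 and 9.79 in 2i and fell by 1.19 ± 0.05 (adjusted p = 2.54e-10). Dnmt3b read 9.48, 9.49 and 9.55 against 10.57, 10.48 and 10.71 and fell by 1.08 ± 0.06 (adjusted p = 5.81e-09). Their catalytically inactive cofactor Dnmt3l read 9.68, 9.72 and 9.74 against 10.88, 10.93 and 11.15 and fell by 1.27 ± 0.06 (adjusted p = 1.15e-09).

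All 2iLIF arrays of these 3 genes lay below all 12 arrays without LIF, and DMSO had the highest mean for each, at 11.12 for Dnmt3a, 11.87 for Dnmt3b and 11.84 for Dnmt3l. Among 10 genes of the DNA methylation machinery 5 were lower and 2 higher (70.0% passed, against 12.2% of all genes), with a median of -0.0868. The 3 Dnmt3 genes are also counted in the formative and primed list, and Prdm14 in the naive list. The higher genes were Prdm14, which represses the de novo methyltransferases in ES cells, and the 5-methylcytosine oxidase Tet2 (0.21 ± 0.05, adjusted p = 0.00597). The oxidase Tet3 (-0.27) and Mbd3 (-0.15) made up the rest of the lower genes, each with a call lost when some single arrays were left out, and 3 members were lower when the fit used the 6 arrays alone, the Dnmt3 genes.

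**Figure D4:**
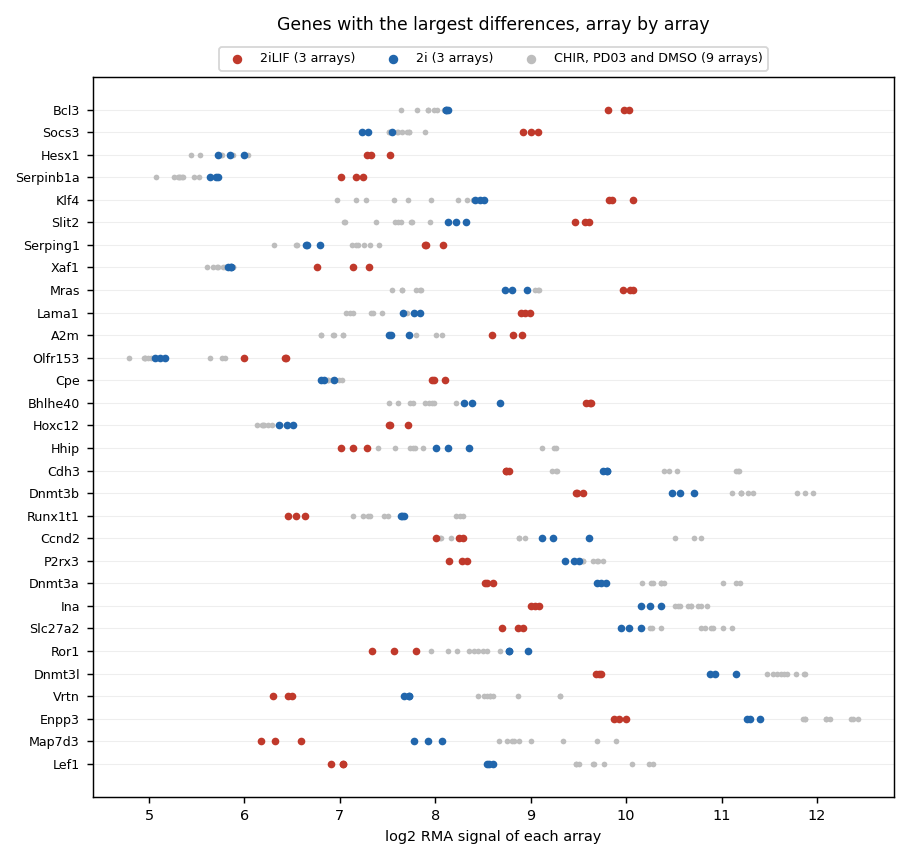
Log2 signal of single arrays for the 30 named genes with the largest differences, 15 higher and 15 lower in 2iLIF; red marks 2iLIF, blue 2i and grey the other 9 arrays. Red and blue do not overlap for any of the 30 genes, and Ccnd2 is the 1 gene of the 30 whose red points do not all lie beyond the grey ones.

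Of the 26 genes that rose 2-fold, 4 belong to the STAT3 target list, Bcl3, Socs3, Klf4 and Mras. Hesx1, a homeobox repressor, read 7.28, 7.33 and 7.53 in 2iLIF and 5.85, 5.72 and 6.00 in 2i, and rose by 1.52 ± 0.08 (adjusted p = 5.12e-09). Serpinb1a, an inhibitor of neutrophil proteases, read 7.01, 7.24 and 7.17 against 5.64, 5.70 and 5.72 and rose by 1.46 ± 0.09 (adjusted p = 1.8e-08). For both genes the groups without LIF lay near the low end of the scale, with means of at most 5.97.

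Secreted and matrix proteins formed part of the 26. Slit2, a guidance ligand of Robo receptors, read 9.46, 9.57 and 9.61 against 8.32, 8.22 and 8.13 and rose by 1.33 ± 0.08 (adjusted p = 2.13e-08). Lama1, a laminin chain of the basement membrane, read 8.94, 8.99 and 8.90 against 7.84, 7.78 and 7.66 and rose by 1.19 ± 0.05 (adjusted p = 2.54e-10). Serping1, the inhibitor of complement C1, rose by 1.26 ± 0.08 (adjusted p = 3.97e-08) and A2m, a broad protease inhibitor, by 1.18 ± 0.09 (adjusted p = 2.13e-07). Cpe, a prohormone-processing carboxypeptidase, rose by 1.17 ± 0.05 (adjusted p = 1.4e-09) and lay at 6.86 to 6.94 in all 4 groups without LIF.

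Innate immune signalling genes were also present near or past the 2-fold mark. Xaf1, an interferon-inducible partner of XIAP, read 7.14, 7.31 and 6.76 against 5.86, 5.83 and 5.86 and rose by 1.22 ± 0.09 (adjusted p = 2.57e-07). Myd88, the adaptor of Toll-like receptors, rose by 1.00 ± 0.06 (adjusted p = 2.37e-08), just under the minimum before rounding, and Sting1, the adaptor of cytosolic DNA sensing, by 0.86 ± 0.04 (adjusted p = 1.4e-09). Myd88 and Sting1 were chosen after their values were seen. In the 4 groups without LIF the means of Sting1 spanned 7.52 to 7.67 and those of Myd88 7.42 to 7.51.

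The others of the 26 were the transcription factor genes Bhlhe40 (1.16) and Hoxc12 (1.15), the olfactory receptor gene Olfr153 (1.17), and 11 outside the naming rule, listed because they complete the set. These were AA467197 (1.45), the growth factor gene Fgf10 (1.14), the oocyte and early embryo gene Khdc3 (1.13), the connexin gene Gjb5 (1.12), Gcnt4 (1.11), the histidine ammonia-lyase gene Hal (1.07), Ttyh2 (1.04), the focal adhesion gene Parvb (1.03), the membrane protein gene Emp1 (1.03), the glutathione peroxidase gene Gpx2 (1.01) and Dkkl1 (1.00). Their largest adjusted p was 2.53e-06, and all 26 read above all 12 arrays without LIF.

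The 16 genes that fell 2-fold were the 3 Dnmt3 genes, Lef1, and 12 others. Enpp3, an ectonucleotidase, averaged 9.93 ± 0.07 (SD, n = 3) in 2iLIF and 11.32 ± 0.07 in 2i and fell by 1.39 ± 0.04 (adjusted p = 4.08e-11). Map7d3, a microtubule-associated protein, fell by 1.56 ± 0.12 (adjusted p = 3.17e-07), Vrtn by 1.28 ± 0.09 (adjusted p = 1.17e-07) and Slc27a2, a fatty acid transporter and acyl-CoA synthetase, by 1.22 ± 0.07 (adjusted p = 2.33e-08). All 4 were highest in DMSO.

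Ina, a neuronal intermediate filament protein, read 9.0, 9.09 and 9.05 against 10.25, 10.16 and 10.37 and fell by 1.21 ± 0.08 (adjusted p = 4.05e-08); its second probe set gave the same difference of -1.21. P2rx3, an ATP-gated ion channel, fell by 1.19 ± 0.06 (adjusted p = 4.44e-09), but its dimmer probe set differed by -0.09 (adjusted p = 0.484). Ror1, a receptor for Wnt5a, fell by 1.27 ± 0.10 (adjusted p = 3.6e-07), the co-repressor gene Runx1t1 by 1.11 ± 0.06 (adjusted p = 4.04e-09), P-cadherin (Cdh3) by 1.04 ± 0.04 (adjusted p = 1.41e-10), the hedgehog inhibitor Hhip by 1.02 ± 0.11 (adjusted p = 9.47e-06) and the ephrin ligand Efnb2, which completes the set outside the naming rule, by 1.00 ± 0.09 (adjusted p = 1.38e-06).

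Cyclin D2 (Ccnd2) read 8.25, 8.01 and 8.29 in 2iLIF and 9.12, 9.23 and 9.61 in 2i and fell by 1.14 ± 0.11 (adjusted p = 1.91e-06). It was the 1 gene of the 16 whose 2iLIF arrays did not all lie below the 12 without LIF, since its PD03 mean was 8.09. Cyclin D1 (Ccnd1) fell by 0.34 ± 0.06 (adjusted p = 0.000748) and cyclin D3 (Ccnd3) rose by 0.30 ± 0.04 (adjusted p = 0.000124). Of 21 cell cycle genes 2 were higher and 3 lower (23.8% passed, against 12.2% of all genes). Without 2iLIF replicate 1 or 2 or 2i replicate 1 or 2, 1 was higher.

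Targets of the inhibited pathways did not move as blocks. Of 17 Wnt and beta-catenin targets 2 were higher and 4 lower (35.3% passed, against 12.2% of all genes), with a median of -0.0574. Sp5 rose by 0.45 ± 0.07 (adjusted p = 0.000382), while Lef1 and the receptor gene Tnfrsf19 (-0.77 ± 0.04, adjusted p = 1.01e-08) were lower. Lef1 is also counted in the formative and primed list. Axin2, a direct beta-catenin target, differed by 0.17 ± 0.08 (adjusted p = 0.208) and passed only in the fit on the 6 arrays. Without 2iLIF replicate 3 or 2i replicate 2, 1 target was higher.

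Of 22 ERK response and feedback genes 7 were higher and 3 lower (45.5% passed, against 12.2% of all genes), with a median of -0.00253. The Sprouty gene Spry4, an ERK feedback inhibitor, read 9.11, 9.09 and 8.95 in 2iLIF and 8.16, 8.31 and 8.61 in 2i and rose by 0.69 ± 0.09 (adjusted p = 7.09e-05), the phosphatase gene Dusp1 rose by 0.33 ± 0.05 (adjusted p = 0.000371), and Spred1 fell by 0.36 ± 0.05 (adjusted p = 0.000111). The count of higher genes was 4 without 2iLIF replicate 3, 3 without 2i replicate 1 and 4 without 2i replicate 2. The phosphatase gene Dusp6, at 0.19 ± 0.06 (adjusted p = 0.0439), lost its call under each of these, and its adjusted p reached 0.214.

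Among 19 immediate early genes 6 were higher and 1 lower, so 36.8% passed against 12.2% of all genes. The largest change was in the antiproliferative Btg2, at 0.50 ± 0.05 (adjusted p = 2.52e-06). Of 13 Nodal and BMP response genes 4 were higher and 2 lower (46.2% passed), with a median of 0.118. The Nodal antagonist Lefty1 read 9.63, 9.75 and 9.69 in 2iLIF and 10.40, 10.48 and 10.54 in 2i and fell by 0.78 ± 0.13 (adjusted p = 0.000573). The related antagonist Lefty2 rose by 0.36 ± 0.07 (adjusted p = 0.00221), so these antagonists moved in opposite directions.

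Of 15 trophoblast genes 4 were higher and none lower (26.7% passed, against 12.2% of all genes), with a median of -0.00986. Eomes, a T-box factor of trophoblast and primitive streak, read 9.57, 9.60 and 9.58 against 8.72, 8.71 and 8.57 and rose by 0.92 ± 0.10 (adjusted p = 1.13e-05). Tfap2c rose by 0.97 ± 0.08 (adjusted p = 5.69e-07) and the keratin gene Krt8 by 0.55 ± 0.07 (adjusted p = 3.92e-05). Of the 5 defining trophoblast markers Eomes was the 1 that passed, and 3 of the 5 had a mean under 6, near the low end of the scale. Their summed linear signal was 1037 to 1049 in 2iLIF and 660.5 to 714.4 in 2i. That rise was the rise of Eomes, since Cdx2, Elf5, Gata3 and Hand1 differed by -0.06 to 0.03 and did not pass. The part of the summed signal in the rise of the other trophoblast genes was not tested.

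Markers of most other cell types did not pass. None of 6 extra-embryonic endoderm markers and none of 7 fibroblast markers passed, with summed linear signals of 588.9 to 646.1 against 558.6 to 627.1 and of 682.8 to 786.8 against 707.7 to 809.5. Of 4 measured neural markers Pax6 was lower, by -0.53 ± 0.05 (adjusted p = 1.18e-06), and none of 4 mesoderm markers passed. In the wider lists, 2 of 18 extra-embryonic endoderm genes were higher, Lama1 and Sparc (11.1% passed, against 12.2% of all genes). So were 3 of 15 primitive streak genes (20.0% passed), or 1 without 2iLIF replicate 3 or 2i replicate 2. In the neural progenitor list 1 of 12 was higher and 1 lower (16.7% passed).

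Among metabolic and housekeeping lists, ribosome biogenesis and the respiratory chain had the lowest shares of genes that passed, and glycolysis (38.9%), hypoxia (28.6%) and cholesterol synthesis (21.4%) had larger shares than all genes (12.2%). None of 19 ribosome biogenesis genes passed at these settings, and 1 was higher without 2iLIF replicate 1. Of 29 respiratory chain subunits 2 were higher, a number that ran from 1 to 4 as single arrays were left out, with 4 without 2iLIF replicate 1 and 1 without 2iLIF replicate 2 or 3 or 2i replicate 1 or 3. Of 18 glycolysis genes 2 were higher and 5 lower, led by the phosphofructokinase Pfkm at -0.52 ± 0.05 (adjusted p = 2.5e-06); none was higher without 2iLIF replicate 2 or 2i replicate 3, 1 without 2i replicate 1, and 3 were lower without 2i replicate 2. Of 14 cholesterol synthesis genes 3 were lower and none higher. Of 14 hypoxia genes 4 were lower, or 2 without 2iLIF replicate 1 or 2 or 2i replicate 2, and 1 was higher without 2iLIF replicate 1. After centring each array, 3 glycolysis, 2 hypoxia and 2 cholesterol synthesis genes were lower. On that scale 1 hypoxia gene and 4 respiratory chain subunits were higher. The share over all genes includes 5587 genes with a mean under 6, and the lists were not matched to it by level.

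Among stress and survival genes, 3 of 15 p53 targets were higher and 4 lower (46.7% passed, against 12.2% of all genes). Only 1 or 2 were lower when any of the 6 arrays was left out, the lower number without 2i replicate 1. After centring 2 were lower. Perp, an adhesion protein, rose by 0.73 ± 0.07 (adjusted p = 1.78e-06). Of 14 Bcl2-family genes 3 were lower (21.4% passed), led by the pro-apoptotic Bcl2l11 (-0.33 ± 0.06, adjusted p = 0.00105), or 1 without 2iLIF replicate 2. Of 14 integrated stress response genes 1 was higher and 4 lower (35.7% passed), and none was higher without 2iLIF replicate 2 or 3 or 2i replicate 3. The lower genes were led by the cystine transporter Slc7a11 (-0.61 ± 0.06, adjusted p = 1.72e-06).

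Of 15 germ line genes 3 were lower (20.0% passed, against 12.2% of all genes). They were led by Mael, which acts against transposons in germ cells, at -0.63 ± 0.10 (adjusted p = 0.000464). Of 19 epithelial and mesenchymal genes 3 were higher and 4 lower (36.8% passed), or 2 lower without 2i replicate 2 or after centring. The claudins split, with Cldn6 at -0.52 ± 0.04 (adjusted p = 1.82e-07) and Cldn7 at 0.53 ± 0.05 (adjusted p = 1.55e-06), and the adhesion molecule Epcam was lower by -0.30 ± 0.04 (adjusted p = 4.99e-05). In the fibroblast (7.14% passed) and 2-cell-stage (14.3% passed) lists, 1 gene each was higher (Vim and Eif1a), and both calls were lost when single arrays were left out. For Vim these were replicates 1 and 2 of 2iLIF and of 2i, and for Eif1a replicates 2 and 3 of 2iLIF and 1 and 3 of 2i. Without replicate 1 of either group, 1 gene of the 2-cell-stage list was lower.

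Several microRNA genes had probe sets on the array, which read precursor RNA in total RNA and not the mature microRNA. They were chosen after their values were seen, because the miR-302 cluster is a known ES cell cluster. The seed, bases 2 to 8, is in capitals in these mature sequences from RefSeq, and shows that miR-302b and miR-302d share a seed which miR-302c carries shifted by a base, while miR-218 has a different one.
mmu-miR-302b-3p: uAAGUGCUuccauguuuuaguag
mmu-miR-302d-3p: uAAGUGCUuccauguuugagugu
mmu-miR-302c-3p: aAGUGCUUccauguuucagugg
mmu-miR-218-5p: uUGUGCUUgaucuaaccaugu

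Mir302b read 4.90, 5.05 and 4.99 in 2iLIF and 5.69, 5.61 and 6.09 in 2i, and fell by 0.82 ± 0.19 (adjusted p = 0.00779). Mir302d fell by 0.64 ± 0.13 (adjusted p = 0.00362). Mir302c was at -0.55 ± 0.14 (adjusted p = 0.0152), a call lost without 2iLIF replicate 1 or 2i replicate 3, with an adjusted p of up to 0.0787. Mir302a at -0.46 ± 0.15 (adjusted p = 0.0537) and Mir367 at -0.10 ± 0.06 (adjusted p = 0.342) did not pass. All of these levels lie near the low end of the scale. By position, these microRNA genes fall within the spans of Larp7 and Gm51018, and the strand was not compared. Larp7 differed by 0.0563 (adjusted p = 0.51), and this is not a measure of the RNA that carries the cluster. Mir218-1, which lies within Slit2, read 6.46, 6.5 and 6.43 against 5.95, 5.83 and 5.83 and rose by 0.59 ± 0.06 (adjusted p = 3.25e-06), as Slit2 did. The level of Mir218-1 was low too, with a mean of 5.86 over 15 arrays.

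The levels in the 9 further arrays without LIF show where the 2iLIF cells stood. The 2iLIF arrays lay above all 12 arrays without LIF for 1083 genes (5.43% of all) and below all 12 for 1536 (7.7%). Of the 910 higher genes, 699 (76.8%) were above all 12, and of the 1527 lower genes, 1111 (72.8%) were below all 12. The count above is partly set by the call itself, since 3 of the 12 arrays are the 2i arrays. Among the higher genes the DMSO mean was the lowest of the 5 groups for 458 (50.3%, against 24.1% of all genes), and among the lower genes it was the highest for 703 (46%, against 21.6%). The call partly sets these shares too, since 2iLIF cannot have the lowest mean of a higher gene or the highest of a lower gene.

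Whether the genes that differed with LIF also responded to each inhibitor alone was asked with CHIR against DMSO and PD03 against DMSO, which use no array of 2iLIF or 2i. These comparisons share the DMSO arrays with each other. CHIR99021 alone called 4144 genes (20.8% of those tested), 1998 higher (10%) and 2146 lower (10.8%). PD0325901 alone called 3354 (16.8%), 1729 higher (8.67%) and 1625 lower (8.15%).

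Of the 910 genes higher with LIF, 314 were higher with CHIR99021 alone (34.5%, and 15.7% of that list) and 117 lower (12.9%). With PD0325901 alone 372 were higher (40.9%, and 21.5% of that list) and 66 lower (7.25%). Of the 1527 genes lower with LIF, 666 were lower with CHIR99021 alone (43.6%, and 31% of that list) and 181 higher (11.9%), and 445 were lower with PD0325901 alone (29.1%, and 27.4% of that list) and 231 higher (15.1%). Neither inhibitor called 297 of the higher genes (32.6%) and 461 of the lower genes (30.2%), against 70.9% of all genes tested. The 2437 genes called with LIF were brighter than all genes, with a median level of 8.92 against 7.4. Of them 63 had a mean under 6, against 5587 of all 19937 genes. How far brightness and the shared spread set these shares was not tested.

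Across all 19937 genes, which are not independent replicates, the LIF effect, 2iLIF minus 2i, had a Pearson correlation of 0.243 with the CHIR99021 effect and of 0.228 with the PD0325901 effect. The Spearman correlations were 0.264 and 0.12, so how alike the values for the inhibitors are depends on the measure. All of these values share the array design and the normalisation.

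The LIF effect was then tested against each inhibitor's effect in the same fit. The backgrounds were unlike. The LIF effect was measured with both inhibitors present, as long-term culture against 24 h without LIF. Each inhibitor's effect was measured against DMSO, without LIF and without the other inhibitor. It differed from the CHIR99021 effect for 2300 genes (11.5% of those tested), 1066 of them with the higher value for LIF and 1234 with the lower. It differed from the PD0325901 effect for 2418 genes (12.1%), 902 higher and 1516 lower, or 1279 and 988 after centring each array, so the higher share of 37.3% became 56.4%. Among the 2437 genes called with LIF, 1065 differed from the CHIR99021 effect, 1133 from the PD0325901 effect and 635 from both.

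Some listed STAT3 targets had a LIF effect that exceeded that of both inhibitors, among them Socs3, Bcl3, Stat3 and Icam1. Socs3 and Bcl3 were among the genes with the largest such excess. This did not hold for the whole list: the differences from CHIR99021 and PD0325901 did not pass for Klf5 (0.01 and 0.13) or Smad7 (-0.04 and -0.08). For Socs3 the CHIR99021 effect was -0.21 and the PD0325901 effect -0.13, and the LIF effect exceeded them by 1.85 ± 0.11 (adjusted p = 1.4e-08) and 1.77 ± 0.11 (adjusted p = 3.34e-08). For Bcl3 the excess was 1.68 ± 0.12 over CHIR99021 (adjusted p = 8.91e-08) and 1.58 ± 0.12 over PD0325901 (adjusted p = 2.29e-07). Serping1 and Tmem154 are not on that list. The CHIR99021 effect on Serping1 was -0.77, and its LIF effect exceeded that by 2.03 ± 0.11 (adjusted p = 1.04e-08). Tmem154 was lower under both, at -0.64 with LIF and -2.17 with CHIR99021, a difference of 1.53 ± 0.11 (adjusted p = 1.58e-07).

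The naive factors Klf4, Tfcp2l1, Tbx3 and Klf5 rose with LIF and with each inhibitor. For Klf4 the LIF effect of 1.45 stood beside 1.19 for CHIR99021, a difference of 0.26 ± 0.13 that did not pass (adjusted p = 0.261), and exceeded the 0.61 of PD0325901 by 0.84 ± 0.13 (adjusted p = 0.000323). Tfcp2l1 had a smaller effect of LIF than of CHIR99021, by -0.29 ± 0.07 (adjusted p = 0.0194), and Tbx3 too, by -0.66 ± 0.10 (adjusted p = 0.000475). Nanog rose with each inhibitor alone, by 0.70 and 0.82, and its LIF effect of 0.03 was lower than both (adjusted p = 2.77e-06 and 5.13e-07). Its mean was already 12.69 in 2i, against 11.74 in DMSO.

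The Dnmt3 genes fell with LIF and with each inhibitor. For Dnmt3a the LIF effect of -1.19 stood beside -0.88 for CHIR99021 and -0.74 for PD0325901, with differences of -0.30 ± 0.07 (adjusted p = 0.0052) and -0.45 ± 0.07 (adjusted p = 0.000202), so the fall with LIF was the larger. For Dnmt3l the LIF effect of -1.27 stood beside -0.31 for CHIR99021, a difference of -0.97 ± 0.08 (adjusted p = 7.68e-07). Otx2 fell more with CHIR99021 alone, at -1.94, and the difference was 0.97 ± 0.09 (adjusted p = 2.61e-06).

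For some genes the LIF effect, measured with both inhibitors present, was opposite in sign to the effect of an inhibitor alone. Gmnc, a regulator of multiciliated cells, fell with LIF by 0.90 ± 0.08 and rose with CHIR99021 by 3.75 (difference -4.64 ± 0.11, adjusted p = 6.05e-13). Nt5e, the ectonucleotidase CD73, fell by 0.48 and rose by 2.88 (difference -3.36 ± 0.11, adjusted p = 1.61e-11), and Ccnd2 fell by 1.14 and rose by 1.77 (difference -2.90 ± 0.15, adjusted p = 3.73e-09). In 2iLIF and 2i, both with CHIR99021, the Gmnc means were 6.65 and 7.55, against 9.19 in CHIR and 5.36 in PD03.

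Among genes called with LIF, the widest gaps against PD0325901 included ERK feedback and Nodal genes, and also genes of neither kind. Spry4 rose by 0.69 with LIF and fell by 2.00 with PD0325901 alone, a difference of 2.69 ± 0.13 (adjusted p = 1.79e-09). In 2i, with PD0325901 present, its mean was 8.36, against 10.2 in DMSO. Lefty1 fell by 0.78 with LIF and rose by 3.90 with PD0325901 (difference -4.68 ± 0.18, adjusted p = 3.15e-10), and Lefty2 rose by 0.36 and by 2.90 (difference -2.54 ± 0.10, adjusted p = 2.87e-10). Hhip and Cdhr1 fell with LIF and rose with PD0325901 alone, with differences of -2.54 ± 0.16 (adjusted p = 3.34e-08) and -2.24 ± 0.09 (adjusted p = 4.51e-10). Mras, by contrast, rose with PD0325901 alone by 1.46, more than with LIF (difference -0.26 ± 0.07, adjusted p = 0.0318).

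**Figure D5:**
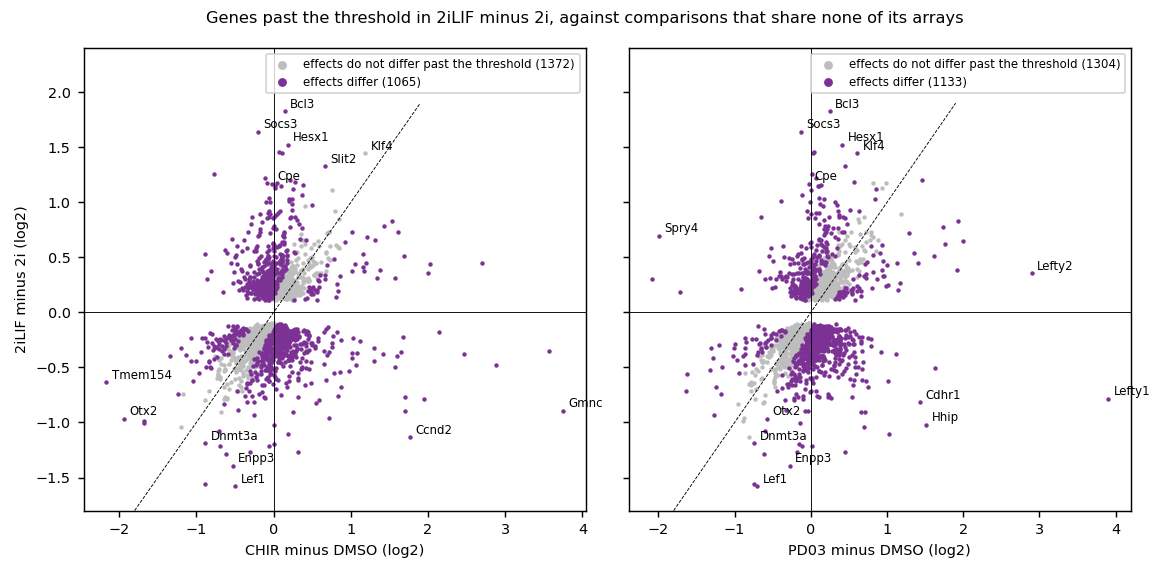
LIF effect (2iLIF minus 2i, log2, vertical axis) against the effect of CHIR99021 alone (left) and of PD0325901 alone (right), each against DMSO, for the 2437 genes called with LIF; the dashed line marks equal effects. Coloured points are the 1065 (left) and 1133 (right) genes whose effects differed at an adjusted p of 0.05, including Socs3 and Bcl3 high above the line at near 0 on both horizontal axes.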

How the data were processed

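Total RNA of 15 samples was hybridised to 1-colour Affymetrix arrays. The deposited table holds log2 expression values, and per the submitters' processing notes the authors made them with RMA. The software's version and the genome build of the array annotation are not given in the sources used here. Of 34760 probe sets, 22961 were annotated, 21640 of them with 1 gene symbol and 1321 with several; 11799 had no name in the annotation used. Per gene the probe set with the highest mean over 15 arrays was kept, giving 19937 genes, with no filter on low values.

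Groups came from sample titles. limma 3.58.1 (R 4.3.3; lmFit and eBayes, 5 group means, no covariates, 10 residual and 5.09 prior degrees of freedom) was fitted to all 15 arrays. P-values are two-sided, Benjamini-Hochberg adjusted over all 19937 genes; a gene passed at an adjusted p under 0.05. The script was tested on simulated data. In the text, "LIF effect" is 2iLIF minus 2i, and ± is the SE of the fit unless SD is named.

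Genes named were the 15 highest and 15 lowest differences with no overlap between arrays and no predicted-gene symbol, up to 4 members of each list, the 4 highest and 4 lowest of each difference between effects, and a set list of pathway genes. The differences between effects were ranked only among genes called with LIF. Through the alternatives 159 genes were followed. Icam1, Zic2, Zic5, Myd88, Sting1, the microRNA genes and the 2-fold genes completing the sets were named after their values were seen, as were the other list members given as examples. The comparison, its members and the 30 gene lists were chosen with earlier results of these data known. The result of 1 list is not reported here. Alternatives tried were other eBayes settings, a mean filter of 6, the mean of probe sets, all probe sets, array centring, array weights, a replicate block, the 6 arrays alone and each replicate left out.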

Additional observations from a re-analysis of the deposited data

How the results depend on the processing

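All values here are from limma with Benjamini-Hochberg adjustment. The 2437 genes past the threshold became 1926 with the 6 arrays alone, 2145 after centring each array (1893 shared with the 2437), 2641 with genes of a mean under 6 left out, 2664 with the trended, robust eBayes and 3015 with array weights; leaving out 1 replicate gave 1898 to 2336, and the 2-fold count 39 to 45. Deviations from the group means of same-numbered arrays of 2iLIF and 2i correlated at 0.341, 0.125 and -0.149. These mixed values do not settle whether the replicate numbers pair the arrays. With the replicate block 2348 genes passed (880 higher, 1468 lower), 42 at 2-fold, 2220 for LIF against CHIR99021 and 2313 for LIF against PD0325901. Leaving out 1 replicate gave 1919 to 2273 and 1989 to 2541 for these differences. Of 143 named genes that passed, 107 did so in all 13 settings tried for named genes, 6 in every setting but the filter, which removed them, and 30 were lost in some. Changes of sign occurred only among differences near 0 that passed in no setting, and the cause was not tested: Ctnnb1 was 0.0317 after centring, 0.0086 with array weights and -0.0166 to 0.015 as 1 replicate was left out; Jak1 was -5e-04 with array weights and -0.0157 to 0.039 as 1 replicate was left out; Pou5f1 was -0.0116 to 0.0301 as 1 replicate was left out. The precision is limited by 3 arrays a group of 1 line at 1 time point, and 63 of the 2437 genes had a mean under 6, near the low end of the scale.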
